A study of Homo sapiens with 36 samples.

Results

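HSD3B7 and its neighbours ORAI3, FBXL19 and SETD1A, together with the store-operated calcium genes ORAI1, ORAI2, STIM1 and STIM2, were followed through the binding maps of tagged HIF-α in 786-O cells. These 8 of 20033 protein-coding genes were chosen by gene name with results of these maps known, and HSD3B7 was put forward by the study for its difference between HIF-2α and HIF-1α in the same libraries. A peak was taken as belonging to a gene when its summit lay in the GENCODE gene body or within 50 kb on either side. Peaks of different libraries that overlapped by at least 1 bp were joined into a region, and 37 of 61215 regions fell to the 8 genes, 13 around HSD3B7 and 24 around ORAI1, ORAI2, STIM1 and STIM2. The windows of HSD3B7, ORAI3, FBXL19 and SETD1A overlap one another on chromosome 16, so a region there is often counted for several of them.

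Binding had been mapped by Cut&Run, in which an antibody against the V5 tag brings a nuclease to the tagged protein and the released DNA fragments are sequenced. 786-O is a clear cell renal carcinoma line without working VHL and without functional HIF-1α, and all 6 lines compared were made from it, with 3 anti-V5 libraries each. WT cells carry no tag, and the HIF-2a KIN line, which is 1 clone, carries a V5 and Halo tag on its endogenous HIF-2α. The other lines stably express an exogenous V5-Halo protein under an L30 promoter beside their untagged endogenous HIF-2α: HIF-2a, HIF-1a, or the chimeras HIF-2a/1a and HIF-1a/2a. In a chimera the name in front says which protein gave the N-terminal DNA-binding portion (DBD), including the dimerization domains, and the name behind says which gave the disordered C-terminal portion (IDR).

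HIF-1α and HIF-2α pair with HIF-1β and recognize the hypoxia response element, whose core is ACGTG or GCGTG. HSD3B7 is an enzyme of the endoplasmic reticulum that oxidizes the sterol ring in bile acid synthesis. When the calcium store of the endoplasmic reticulum runs low, its sensors STIM1 and STIM2 open the plasma membrane channels ORAI1, ORAI2 and ORAI3, which is called store-operated calcium entry. FBXL19 is an F-box protein with a CXXC domain that binds unmethylated CpG DNA, and SETD1A is a histone H3 lysine 4 methyltransferase.

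Binding around HSD3B7 was carried by a pair of regions whose sequence is shown because the results turn on them. One lay in HSD3B7 itself, with its summit in a coding exon 898 bp downstream of the nearest annotated start. The other lay in the first intron of ORAI3, 1256 bp downstream of the nearest start of ORAI3 and 34799 bp from HSD3B7. Each window holds 201 bases of hg38, plus strand, centred on the strongest summit, with ACGTG and GCGTG on either strand in capitals (CACGT and CACGC when they lie on the minus strand).
HSD3B7 coding exon, chr16:30986014-30986214: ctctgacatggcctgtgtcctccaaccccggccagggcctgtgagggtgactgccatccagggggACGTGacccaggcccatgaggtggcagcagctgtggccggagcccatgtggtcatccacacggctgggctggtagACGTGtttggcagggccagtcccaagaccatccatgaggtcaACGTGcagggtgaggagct
ORAI3 first intron, chr16:30950308-30950508: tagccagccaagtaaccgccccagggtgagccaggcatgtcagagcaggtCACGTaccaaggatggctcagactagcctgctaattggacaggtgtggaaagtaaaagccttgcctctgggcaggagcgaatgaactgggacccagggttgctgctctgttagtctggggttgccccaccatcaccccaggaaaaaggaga

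The HSD3B7 window held ACGTG at 3 places on the plus strand, starting at -35, 40 and 82 bp from the summit. The ORAI3 window held it at 1 place on the minus strand, from -50 to -46 bp, where the T in front of it makes TACGTG. The summits of the 13 libraries with a peak in HSD3B7 lay at -51 to 77 bp from the strongest one. In ORAI3 the 15 summits lay at -68 to 9 bp from the strongest one. Of the 25 member regions found in at least 2 libraries, 8 (32%) held ACGTG or GCGTG within 50 bp of the summit, beside 24.1% of all 25783 such regions and 32.6% of the 1201 regions called in all 15 tagged and no WT library. Within 100 bp of the summit the shares were 44%, 44.9% and 67.5% in the same order.

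The peak lists held 392 to 20808 peaks, and the depth inferred from them was between 0.241 and 0.625 fragments per base. Levels are given as summit signal, the number of fragments at the summit divided by the genome-wide mean of that library, and as rank, the place of the peak in its own list ordered by p (ties shared). Summit signal takes no account of local background, unlike the fold enrichment deposited with each peak. WT replicate 2 stood apart from the other WT libraries with 9508 peaks against 392 and 743, and HIF-2a KIN replicate 1 had the shortest list of a tagged line, 3984 peaks. A region absent from a list was not called there, which does not show that it was unbound. Of 187 calls of member regions, 185 came from the 15 tagged libraries and 2 from WT replicate 2, and no WT library had a peak around HSD3B7.

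In the ORAI3 intron (chr16:30948972-30951141) all 15 tagged libraries and no WT library had a peak. The summit signal was 171, 520 and 253 in the 3 HIF-2a libraries, 254, 670 and 324 in HIF-1a/2a, 386, 999 and 537 in HIF-2a/1a, and 252, 750 and 422 in HIF-1a. The HIF-2a KIN libraries gave 137, 334 and 262. Replicate 2 was the highest of every tagged line, and without further scaling the lines with the HIF-1α IDR and those with the HIF-2α IDR overlapped. By rank the peak stood at 0.534% to 2.06% of the list with the HIF-1α IDR, 1.3% to 11.2% with the HIF-2α IDR and 4.44% to 16.3% in HIF-2a KIN.

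Each exogenous library was centred on its median log2 signal over the 2720 regions called in all 12 exogenous libraries, which removes differences of scale between libraries. On this scale the ORAI3 intron stood at 1.05 ± 0.25 in HIF-2a, 1.17 ± 0.10 in HIF-1a/2a, 1.54 ± 0.11 in HIF-2a/1a and 1.45 ± 0.18 in HIF-1a (log2, mean ± SD, n = 3 each). The difference between the HIF-2α IDR and the HIF-1α IDR was -0.38 on the log2 scale, a 1.31-fold lower signal with the HIF-2α IDR. It was between -0.44 and -0.35 within the replicate numbers, and -0.62 without centring, -0.18 with the deposited fold and -1.55 with ranks. A more negative difference was found in 502 of the 2720 regions, in 855 with the deposited fold and in 77 with ranks. Since the neighbouring HSD3B7 had been picked for that contrast and ORAI3 was chosen with these results known, the ORAI3 difference is a description and was not tested.

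A weaker peak next to it lay around the end of the first exon of ORAI3. It was called apart from the main peak in 8 tagged libraries, with its summit at -970 to -815 bp from the main one and a signal of 17.1 to 59.2. ORAI3, a channel subunit that can join ORAI1, thus had a pair of peaks in those libraries, and the intron peak was the higher in each.

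The HSD3B7 exon region (chr16:30984993-30986908) followed another order. Its summit signal was 266, 822 and 335 in HIF-2a and 210, 423 and 241 in HIF-1a/2a. It was 113, 175 and 78.6 in HIF-2a/1a, and 49.0 and 128 in HIF-1a replicates 1 and 2, with no peak in HIF-1a replicate 3. Every exogenous library with the HIF-2α IDR lay above each one with the HIF-1α IDR that had a peak, whichever DBD it carried, so the groups did not overlap even without centring. The share of all regions that separate in this way is not given here. The peak stood at 1.5% to 6.66% of the list, counted from the strongest peak, with the HIF-2α IDR (ranks 309 to 824) and at 12.3% to 37.0% with the HIF-1α IDR (ranks 2089 to 5578.5).

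On the centred log2 scale the HSD3B7 region stood at 1.62 ± 0.15 in HIF-2a (n = 3), 0.72 ± 0.13 in HIF-1a/2a (n = 3), -0.81 ± 0.41 in HIF-2a/1a (n = 3) and -1.02 ± 0.12 in HIF-1a (n = 2). The difference by IDR was 2.09, a 4.24-fold higher signal with the HIF-2α IDR over the 11 libraries that called it, and 1.89 to 2.34 within the replicate numbers. In the fit over the 5655 regions called in at least 10 of the 12 exogenous libraries its difference was 2.11 ± 0.17 (SE), and 7 regions had a larger one. The DBD difference there was 0.61 ± 0.17. These values use the contrast for which HSD3B7 had been selected and carry no test.

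The HIF-2a KIN line, whose tagged protein has the HIF-2α IDR, did not share the level of the exogenous HIF-2a line in HSD3B7. The peak had a signal of 54.5 and 43.0 in KIN replicates 2 and 3, at 40.0% and 57.6% of the list, and was not called in replicate 1. Dividing the HSD3B7 signal by the ORAI3 signal of the same library gave 0.163 and 0.164 in KIN, and 1.55, 1.58 and 1.33 in HIF-2a. The ratio was 0.827, 0.632 and 0.745 in HIF-1a/2a, 0.292, 0.175 and 0.146 in HIF-2a/1a, and 0.194 and 0.170 in HIF-1a. Thus HSD3B7 exceeded ORAI3 in the HIF-2a line alone among the lines with a peak in both regions, and KIN lay within the range of the lines with the HIF-1α IDR. KIN differs from the exogenous lines in the source and amount of the tagged protein as well as in being 1 clone, and these cannot be told apart here.

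**Figure D1:**
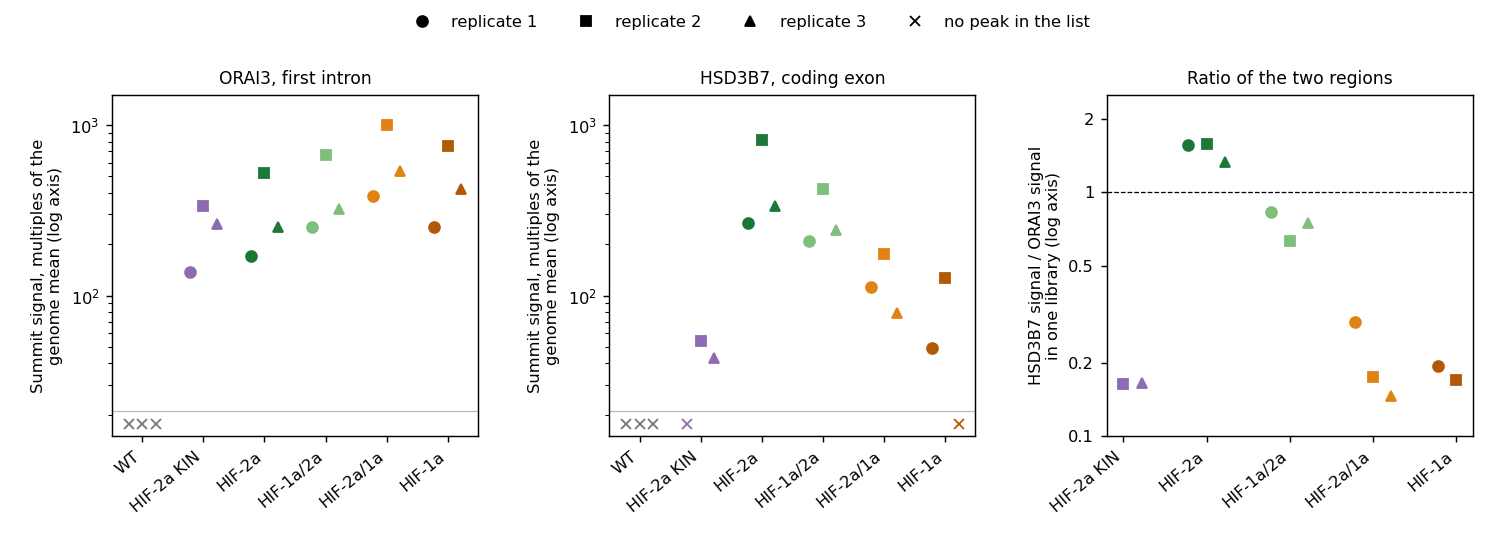
Summit signal in multiples of the genome mean (log axis) at the ORAI3 intron and in the HSD3B7 coding exon, and the HSD3B7 signal divided by the ORAI3 signal within a library (log axis, dashed line at 1), for 6 lines with 3 anti-V5 libraries each; crosses are libraries without a peak. The ORAI3 peak is present in all 15 tagged libraries, whereas in HSD3B7 the exogenous lines lie at 210 to 822 with the HIF-2α IDR and at 49.0 to 175 with the HIF-1α IDR, and HIF-2a KIN at 43.0 and 54.5.

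The other regions around HSD3B7 were weaker and were called in part of the libraries. At the FBXL19 promoter (summit at -257 bp from the nearest start) 8 exogenous libraries had a peak, 5 with the HIF-1α IDR and 3 with the HIF-2α IDR, with a signal of 44.8 to 125. The deposited fold there was 2.48 to 7.79. The SETD1A promoter was called in 8 exogenous libraries, split 5 and 3 in the same way, and in HIF-2a KIN replicate 3, with a signal of 41.6 to 109. The promoter of BCL7C, a subunit of BAF chromatin remodelling complexes, was called in 7 exogenous libraries, 5 and 2, at 31.8 to 81.0. These calls went with the length of the list: FBXL19 was called in lists of 11679 to 20808 peaks and missed in lists of 3984 to 13193, and the part of list length in them was not tested.

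Others were weaker still. A peak region at -512 bp from the nearest ORAI3 start, where FBXL19 has its 3′ UTR, was found in HIF-2a replicate 2 and in the 3 HIF-1a/2a libraries and in no library with the HIF-1α IDR, with a signal of 26.1 to 29.3. The promoter of STX4, a syntaxin of the plasma membrane, was called in 5 tagged libraries at 26.8 to 46.8. Neither region ranked above place 8166.5 of its list.

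**Figure D2:**
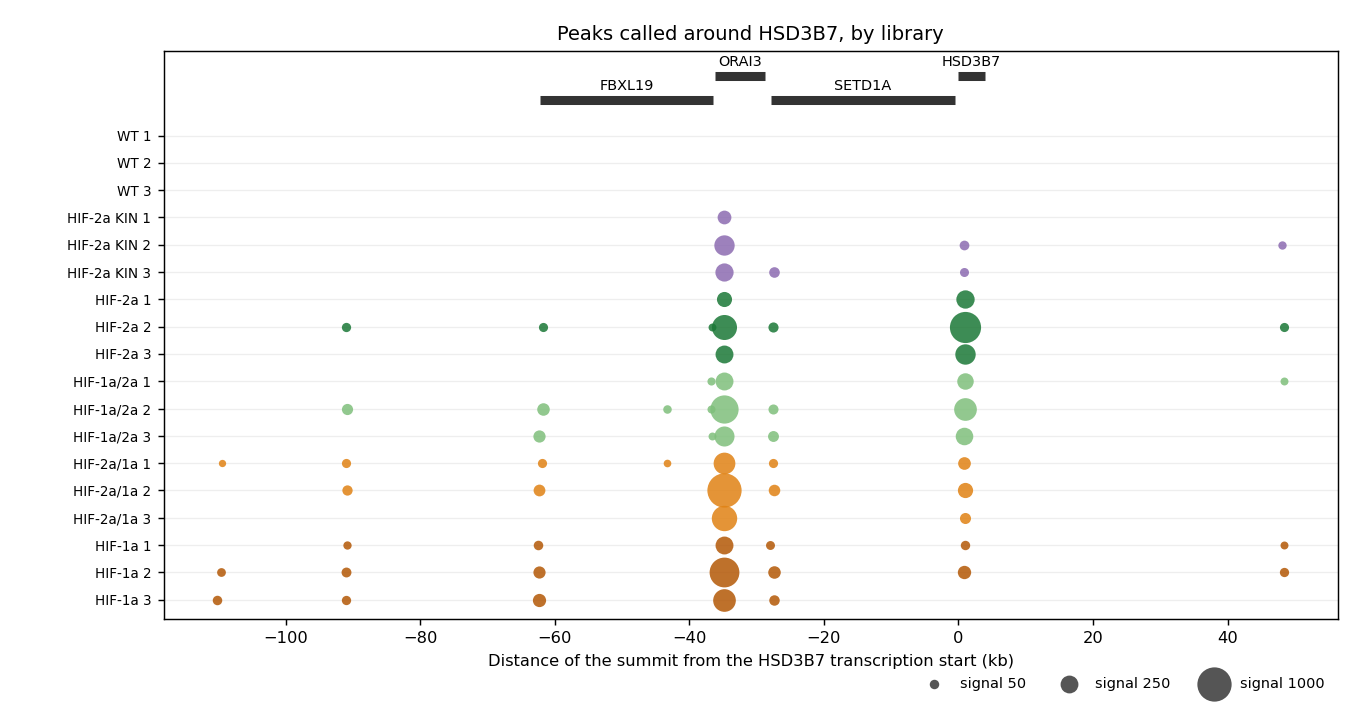
Each dot is the strongest peak in a library of one of the 9 regions drawn, placed by the distance of its summit from the HSD3B7 transcription start (kb), with an area that grows with summit signal; bars at the top are the gene bodies. The ORAI3 column is filled in all 15 tagged libraries and the HSD3B7 column in 13, while the flanking promoters are called mainly in the longer lists and the WT rows are empty.

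The regions next to the 50 kb limit were these. For HSD3B7 the outermost region inside was the STX4 promoter, 44443 bp away with a highest signal of 46.8, and the nearest one outside was the FBXL19 promoter, 62409 bp away with a highest signal of 125. For ORAI1 the outermost region inside was an intron region of KDM2B, 48850 bp away with a highest signal of 72.6, and the nearest outside lay 77088 bp away with a highest signal of 49.5. For ORAI2 the nearest region outside, 69314 bp away at another start of PRKRIP1, was called in all 15 tagged libraries at 13.2 to 97.7. For STIM1 the nearest region outside, at 50207 bp, was called in 3 tagged libraries at 17.1 to 42.3.

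A region called in all 15 tagged and no WT library was present within 50 kb of 5 of the 8 genes, beside 10.9% of all protein-coding genes. For HSD3B7, ORAI3, FBXL19 and SETD1A this was 1 shared region, the ORAI3 intron. For ORAI1 it was the promoter of KDM2B, 45385 bp from ORAI1. ORAI2, STIM1 and STIM2 had none. Within 10 kb the number was 3 of 8, beside 5.61% of all genes, since HSD3B7 and ORAI1 were then too far from these regions. Within 100 kb it was 6 of 8, with ORAI2 added, beside 16.8%.

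The KDM2B promoter (chr12:121579668-121583169) was the region with the highest signal in the windows of the other calcium genes, although the PRKRIP1 promoter described further on was higher in HIF-1a replicates 1 and 2 and equal in HIF-1a/2a replicate 1. KDM2B is a histone demethylase that shares the CXXC and F-box domains of FBXL19. Its summit signal was 125, 416 and 189 in HIF-2a, 237, 576 and 246 in HIF-2a/1a, 108, 302 and 209 in HIF-1a and 115, 342 and 208 in HIF-1a/2a. HIF-2a KIN gave 127, 345 and 312, within the range of the exogenous lines. The region was called in 15 tagged and 0 WT libraries (Fisher's exact test, two-sided, adjusted p = 0.0263), as were 4.66% of all consensus regions at that threshold, and 1 of the 14 calcium regions tested passed. That call was lost on leaving out any 1 of the 3 WT libraries and when libraries were permuted within replicate numbers. In each of these settings 0 of all regions passed, so the loss was not particular to KDM2B. The smallest p a region can reach is larger in these settings, so the loss says little of the call's stability. With all libraries, the calcium regions at an unadjusted p under 0.05 were 3 of 14, beside 18% of all. The calcium genes were also chosen with results of these maps known. No p-value given for their regions allows for that choice.

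Among regions measured in all 12 exogenous libraries, the KDM2B promoter was the only one from the ORAI1, ORAI2, STIM1 and STIM2 windows. By DBD it was 0.40 ± 0.13 higher on the log2 scale (SE) with the HIF-2α DBD (limma, adjusted p = 0.0229), where 33% of all 2720 regions passed. Each library entered with its highest summit in the region. In HIF-2a replicate 1 and HIF-2a/1a replicates 1 and 3 that summit lay at another place, described below. What part this had in the DBD difference was not tested. The line means were 0.65 ± 0.27 in HIF-2a and 0.67 ± 0.15 in HIF-2a/1a, against 0.27 ± 0.22 in HIF-1a and 0.26 ± 0.23 in HIF-1a/2a (centred log2, SD, n = 3). This call was lost in the exact permutation test (adjusted p = 0.0597), without centring (adjusted p = 0.995), with the deposited fold (0.555), with ranks (0.227), and on leaving out HIF-2a replicate 2, HIF-2a/1a replicate 2, HIF-1a replicate 1 or HIF-1a/2a replicate 1 (adjusted p = 0.0502, 0.0612, 0.0674 and 0.0588). By IDR the difference was -0.01 ± 0.13 (adjusted p = 0.948), where 44.3% of regions passed, and between HIF-2a and HIF-1a it was 0.39 ± 0.19 (adjusted p = 0.104), where 40.1% passed. Without HIF-2a replicate 1 the latter was 0.62 (limma, adjusted p = 0.0158).

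The place of the KDM2B summit also differed between libraries. In 10 libraries it lay within 60 bp of the strongest summit, which is at -101 bp from the nearest start, and in 5 it lay at -448 to -432 bp from it on the chromosome, inside the gene. These 5 were HIF-2a KIN replicates 2 and 3, HIF-2a replicate 1 and HIF-2a/1a replicates 1 and 3, all of which carry the HIF-2α DBD, and none of the 6 libraries with the HIF-1α DBD was among them. HIF-2a KIN replicate 1, HIF-2a replicates 2 and 3 and HIF-2a/1a replicate 2 carry the HIF-2α DBD too and had the main summit. The share of all regions whose summits split in this way is not given. The closest core motifs to both places are shown with 12 bases on either side, the motif in capitals, on the strand of the motif.
KDM2B near the main summit, chr12:121581005-121581033, minus strand: tgtatttcctgtACGTGtgtgtgtccaca
KDM2B at the summit of the 5 libraries, chr12:121580656-121580684, plus strand: ccgagcatgctgGCGTGaaagcccccggg

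The ACGTG of the KDM2B promoter, a TACGTG as in the ORAI3 intron, lay at -107 to -103 bp from the main summit on the chromosome, while the GCGTG started at -8 bp from the other. TACGTG lay within 50 bp of the summit in 1 of the 25 member regions, the ORAI3 intron, and in 2.66% of all regions. An intron region of KDM2B, 1985 bp downstream of the nearest start, was called in 5 of 6 exogenous libraries with the HIF-2α DBD, in 0 of 6 with the HIF-1α DBD and in 2 of 3 KIN libraries, at a signal of 22.4 to 72.6. Fisher's exact test of its calls by DBD gave p = 0.0152 unadjusted and 1 after adjustment. This pattern of the KDM2B summits was noticed in the data and was not tested.

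In the ORAI2 window the most frequent region was the promoter of PRKRIP1 (chr7:102395676-102396504), a gene for a splicing-associated protein, 36836 bp from ORAI2. It was called in 14 of 15 tagged and 0 WT libraries (Fisher's exact test, adjusted p = 0.0657). Its summit signal was 67.2 and 110 in HIF-2a with no peak in replicate 3, 115, 144 and 99.1 in HIF-1a/2a, 205, 450 and 236 in HIF-2a/1a, and 176, 336 and 169 in HIF-1a. The exogenous libraries with a peak lay at 169 to 450 with the HIF-1α IDR and at 67.2 to 144 with the HIF-2α IDR, without overlap. HIF-2a KIN lay with the latter at 71.4, 145 and 121. Here too the share of all regions that separate in this way is not given. The GCGTG closest to its summit is shown with 12 bases on either side.
PRKRIP1 promoter, chr7:102396238-102396266, minus strand: agcctgaggctgGCGTGggttattgtgtt

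With no peak in HIF-2a replicate 3, PRKRIP1 was outside the regions measured in all 12 exogenous libraries. In the fit over regions called in at least 10 of them, the HIF-2α IDR gave a lower signal, by -1.08 ± 0.17 on the log2 scale (limma, adjusted p = 5.99e-06), where 30.9% of regions passed. It was lower in HIF-2a than in HIF-1a by -1.16 ± 0.26 (adjusted p = 0.000586), where 27.8% passed. The DBD difference was -0.08 ± 0.17 (adjusted p = 0.781). HIF-2a replicate 3, from a line with the HIF-2α IDR, entered this fit as missing. ORAI2 was chosen with results of these maps known, and the p-values do not allow for that choice. The fit was not the main one and was not repeated without centring, with the deposited fold, with ranks or by permutation. Over the 2720 regions of the main fit, the count by IDR fell from 1206 to 8 without centring.

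**Figure D3:**
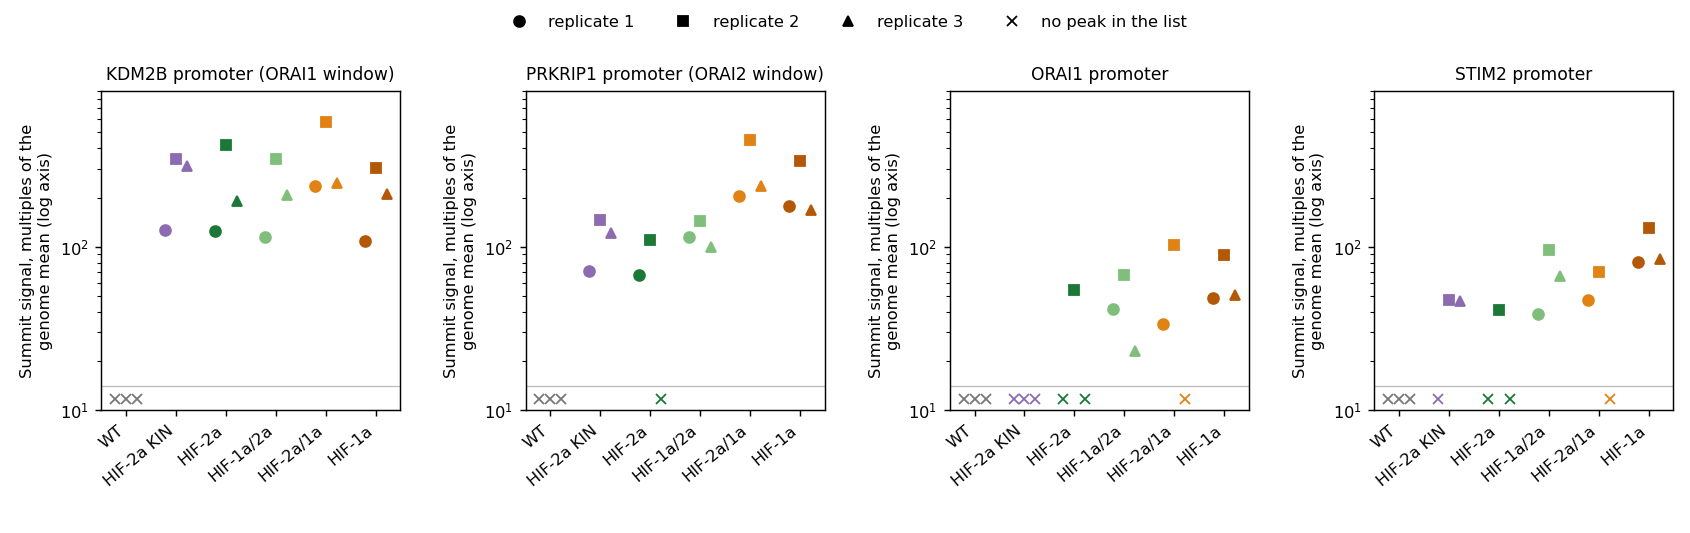
Summit signal in multiples of the genome mean (log axis) at the promoters of KDM2B, PRKRIP1, ORAI1 and STIM2 in the 18 anti-V5 libraries, by line; crosses are libraries without a peak. KDM2B is present in all 15 tagged libraries at 108 to 576, PRKRIP1 is lower in the lines with the HIF-2α IDR, and ORAI1 and STIM2 are weaker and missing from several lists.

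The calcium genes' own promoters were weaker targets than these neighbours. ORAI1, the pore subunit of the main store-operated channel, had a promoter peak in 9 exogenous libraries and in no KIN library, with a signal of 54.1 in HIF-2a replicate 2, 33.8 and 102 in HIF-2a/1a replicates 1 and 2, 49.0, 88.5 and 50.6 in HIF-1a, and 41.4, 67.0 and 23.1 in HIF-1a/2a. It was called in 6 of 6 libraries with the HIF-1α DBD and 3 of 6 with the HIF-2α DBD (Fisher's exact test, p = 0.182, adjusted p = 1). The lists that called it held 11679 to 20808 peaks and those that did not 3984 to 13193, and the part of list length in this was not tested.

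STIM2, the sensor that responds to small falls of the calcium store, had a promoter peak in 11 tagged libraries. The signal was 80.8, 130 and 84.3 in HIF-1a, 39.0, 95.1 and 66.1 in HIF-1a/2a, 47.3 and 70.4 in HIF-2a/1a replicates 1 and 2, 41.0 in HIF-2a replicate 2, and 47.2 and 46.9 in KIN replicates 2 and 3. It too was called in 6 of 6 libraries with the HIF-1α DBD and 3 of 6 with the HIF-2α DBD (Fisher's exact test, p = 0.182, adjusted p = 1). Against WT its 11 of 15 and 0 of 3 calls gave an adjusted p of 0.238 (Fisher's exact test).

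ORAI2 had a region at -1002 bp from its nearest start in 5 exogenous libraries, 4 of them with the HIF-1α IDR, at a signal of 20.5 to 65.1, and a peak at the start itself in 1 library at 9.33. STIM1 had no region within 1 kb of a start. Its window held 4 regions in all, 3 of them in a single library each, and the fourth, at the promoter of RHOG, was called in 4 exogenous libraries at 13.5 to 36.3. A region near MORN3 in the ORAI1 window was called in 9 tagged libraries and also in WT replicate 2, where its signal of 132 was near the top of the range of 39.5 to 142. A peak in a STIM2 intron was called in WT replicate 2 alone. Of the other regions, one at -9341 bp from the nearest start of KDM2B was called in 8 tagged libraries, the promoter of LRWD1, an origin recognition factor, in 4, and an ORAI2 region 4153 bp from its nearest start in 3. The remaining calcium regions were called in 1 or 2 libraries each.

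No calcium region passed Fisher's exact test by IDR or by DBD. The adjusted count was 0 of 14 by IDR (0% of all 25285 regions tested) and 0 of 14 by DBD (0% of all). Unadjusted p was under 0.05 for 0 of 14 by IDR, beside 1.41% of all, and for 1 of 14 by DBD, beside 0.562%. With 6 against 6 libraries the smallest p the test can give is 0.00216, so 1095 regions would have to reach it for any to pass, and 48 did by IDR.

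**Figure D4:**
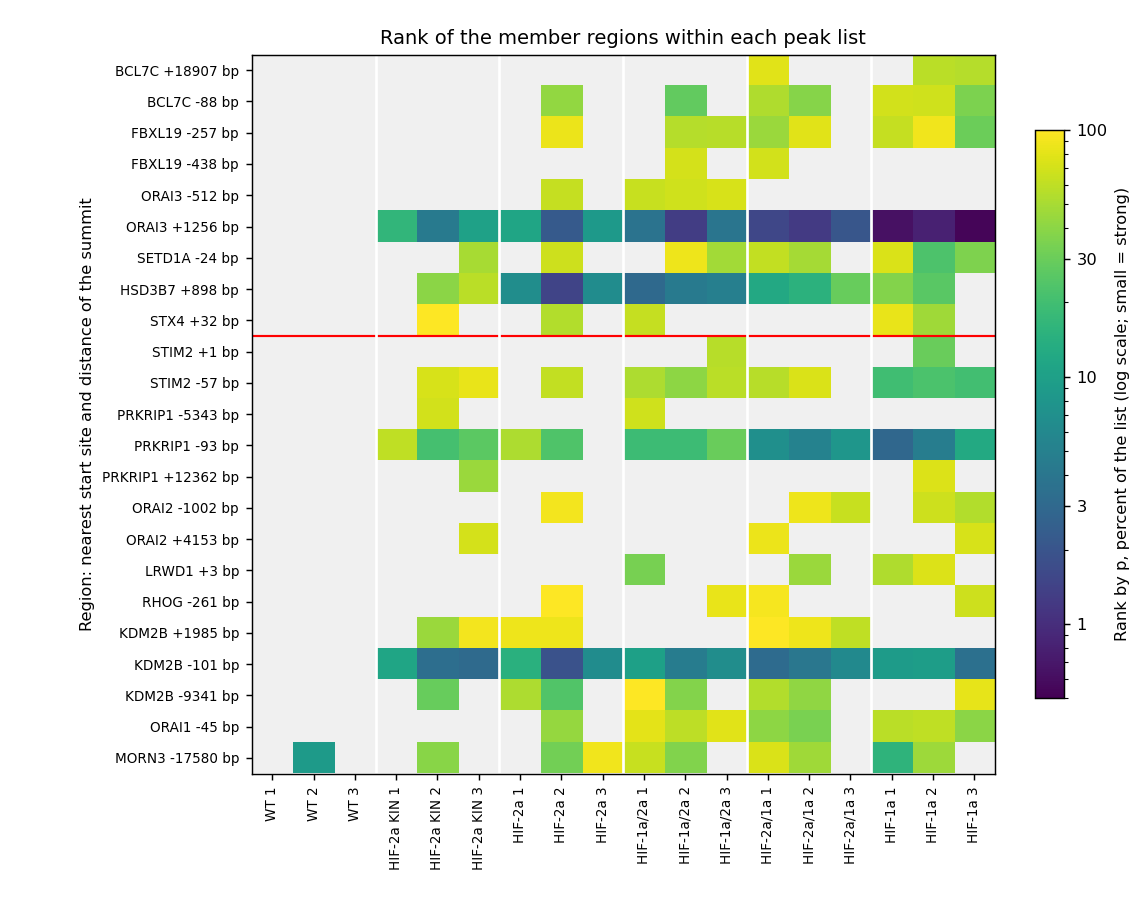
Rank by p of 23 of the 25 member regions found in at least 2 libraries, as a percent of the list of each of the 18 anti-V5 libraries (colour, log scale, small is strong; grey, no peak), with the HSD3B7 neighbourhood above the red line and the other calcium genes under it. ORAI3 +1256 bp and KDM2B -101 bp are filled in all 15 tagged libraries, and HSD3B7 +898 bp is darkest in the HIF-2a and HIF-1a/2a columns.

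Genes of related pathways were counted in the same way. A region called in all 15 tagged and no WT library lay within 1 kb of a start for 2.25% of all genes. Among the regulators of store-operated calcium entry it was 0 of 27, among bile acid synthesis genes 0 of 16, and among the other subunits of the SETD1 complex 0 of 9. Among calcineurin and NFAT genes, which act after the calcium rise, it was 1 of 16: PPP3R1, the regulatory subunit of calcineurin, with a median signal of 138 and a range of 79.3 to 445. In the list of CXXC and F-box relatives of FBXL19, which also holds ubiquitin ligase components, it was 3 of 11. These were KDM2B and the ligase components CUL1 (23.8 to 122) and RBX1 (47.6 to 251). Of these only KDM2B has the CXXC and F-box domains, and its region had already been met in the ORAI1 window. Within 50 kb, where the share of all genes was 10.9%, the counts were 2 of 27, 1 of 16, 0 of 9, 2 of 16 and 4 of 11 in the same order of lists.

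Over the 1720 regions called in all 15 tagged libraries, the centred signal most like that of the ORAI3 intron belonged to regions whose nearest genes were SRSF4 (r = 0.916), LRP12 (r = 0.916), PAIP2 (r = 0.882), GNA15 (r = 0.877) and SPEN (r = 0.875), Pearson correlations over the same 15 libraries. The HSD3B7 exon region correlated with the ORAI3 intron at r = -0.352 over the 13 libraries that had both. The closest partners of the HSD3B7 region among 2285 regions were looked up after its values were seen. Places 1 to 3 had as nearest genes SLC44A3 (-110189 bp from its start, r = 0.961), ACKR3 (179790 bp, r = 0.954) and JUN (-145855 bp, r = 0.952). Places 4 and 5 lay nearer a start, at -39652 bp (r = 0.946) and 19484 bp (r = 0.945). These correlations describe a few lines with shared depth and scaling, and no test was made of them.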

How the data were processed

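Per the labels and the methods of the study, reads were aligned to hg38 with Bowtie2 2.3.4.1, and peaks of each anti-V5 library were called with MACS2 (version not given in the sources used here) at q 0.01 with a maximum gap of 400 bp, using as control the IgG sample that matched in line and replicate number, without pooling. The deposited lists, with blacklisted regions removed by bedtools 2.28.0, give the fold enrichment, the −log10 of p and of q, and the summit offset in bp. These fold, −log10 and offset values were used as the authors deposited them.

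Fold and p together fix how many fragments cover a summit and how many its background predicts, and both were computed for each peak. Whole fragments matched 100% of peaks within 0.001 in all libraries but HIF-2a/1a replicate 2, where the pileup was on a scale of 0.9493 and 99.96% matched within 0.01. The lowest background of a list was taken as its depth, since no read totals were used here, and counting error alone is covered by it. The lists end within the chromosome lengths of hg38, and genes come from GENCODE 44.

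Summit signal was tested with limma 3.58.1 in R 4.3.3 (log2, libraries centred on their median, eBayes with trend) over regions called in all 12 exogenous libraries, and calls with two-sided Fisher's exact tests over consensus regions (at least 2 libraries, and for IDR and DBD under 2 WT libraries), with Benjamini-Hochberg adjustment over all regions and a threshold of 0.05. Tests were printed for ORAI1, ORAI2, STIM1 and STIM2 regions only. The scripts were tested on simulated data. The members and gene lists (regulators of store-operated calcium entry, calcineurin and NFAT, bile acid synthesis, SETD1 complex, CXXC and F-box relatives of FBXL19 with ubiquitin ligase components) were chosen with earlier results of these data known. Genes were named by a fixed rule: the 8 members, genes with a region within 1 kb of their start, genes of the lists with a region in all tagged and no WT library at their promoter, and the nearest genes of the 5 regions most like the ORAI3 intron. Other regions are labelled by the gene with the nearest start, such as MORN3, and SLC44A3, ACKR3 and JUN were named after their values were seen. The 3 libraries of a line are numbered replicates per the labels, which do not say whether they came from separate cultures, so p-values measure the spread between these libraries. No pair of lists shared an identical peak. Some regions of the windows are counted in the totals but are not reported or drawn here.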

Additional observations from a re-analysis of the deposited data

How the results depend on the processing

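Of the alternative values of the counts and differences, 26 moved beyond the spread or beyond 1.5 times the value reported, and no called value turned its direction. For the KDM2B promoter, the only single region followed in this way, 45 alternative values over 3 contrasts kept their side of the threshold. The 8 values that lost the call were all by DBD, the only contrast called in the main fit. The 1 that gained it was HIF-2a against HIF-1a without HIF-2a replicate 1. Member genes with a region in all tagged and no WT library were 3 within 10 kb instead of 5, and 5 to 6 on leaving out a library. With summits within 150 bp joined they were 4, without ORAI1. Calcium regions that differed by IDR in signal were 1 instead of 0 with regions called in at least 10 of 12 libraries, namely PRKRIP1, and 0 to 1 on leaving out a library. By DBD the count was 0 instead of 1 without centring, with the deposited fold, with within-list ranks and in the exact permutation test, and 0 to 1 on leaving out a library. For HIF-2a against HIF-1a it was 1 instead of 0 with regions called in at least 10 of 12, and 0 to 1 on leaving out a library; the permutation of 3 against 3 cannot go under p = 0.1. Counts by IDR and DBD in calls were 0 throughout, which says nothing of stability, since the test could not pass at this size. By tag the count was 0 instead of 1 within replicate numbers and 0 to 2 on leaving out a library (0 without any 1 WT library, 2 without HIF-2a replicate 3). In the settings with 0, no region of the whole series passed either, and the smallest p a region could reach was larger there. The number of all regions that passed also moved: by IDR it was 1206, and 8 without centring, 61 with the deposited fold, 653 with ranks and 907 by exact permutation. By DBD it was 898 (509 higher and 389 lower with the HIF-2α DBD), and 10 (1 and 9) without centring, 83 (26 and 57) with the deposited fold, 484 (209 and 275) with ranks and 575 by exact permutation. For HIF-2a against HIF-1a it was 1090, and 2, 84, 691 and 0. The split by IDR was 687 higher and 519 lower, against 7 and 1 without centring and 46 and 15 with the deposited fold. The cause of these shifts was not tested.

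The ORAI3 difference of -0.38 was -0.62 without centring, -0.18 with the deposited fold and -1.55 with ranks, and -0.45 to -0.32 on leaving out a library. The HSD3B7 difference of 2.09, whose alternatives were chosen after seeing the data, was 1.83 without centring, 1.48 with the deposited fold and 2.99 with ranks, and 2.00 to 2.20 on leaving out a library. Member regions with the motif were 32%, and 4% with TACGTG. Within 100 bp of the summit they were 44%, beside 44.9% of all such regions.

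With the replicate number as a replicate block, the KDM2B difference by DBD kept its call (adjusted p = 0.00587) and the count of calcium regions by DBD was 1; over all regions the count by IDR was 1420. Same-numbered libraries deviated together with a median r of 0.236 (lowest 0.088, 18 pairs) against -0.120 for other pairs, and 12 of 12 correlated best with their own number, a hint from the data and not from the labels. What part depth had in the weak promoters called in only some lists was not tested.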
